A study of Homo sapiens with 18 samples.

Results

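The TRIM family of ubiquitin ligases was followed in PANC-1 cells after knockdown of NAT10. The members were the protein-coding genes whose symbol is TRIM followed by a number, which gave 78 of the 58302 genes in the RNA-seq table. Of these, 12 were paralogs with a letter suffix, readthrough genes or similar symbols, and they were kept. PANC-1 is an established cell line from a human pancreatic ductal carcinoma. Cells of the control group (shCtrl) carried a lentiviral control shRNA vector, and cells of the knockdown group (shNAT10) a lentiviral shRNA against NAT10, the only known writer of N4-acetylcytidine (ac4C) on RNA. RNA-seq was done on 3 libraries per group, with 15825880 to 23511663 reads recovered per library, and RNA immunoprecipitation with an ac4C antibody (acRIP-seq) on 3 IP and 3 input libraries per group. The labels call the control an empty vector, whereas the oligonucleotide list of the study holds a non-targeting shRNA, and the sources used here do not name which of 2 listed NAT10 shRNAs these cells carried. Nothing states that the libraries of a group came from separate cultures, so that the p-values measure only the spread between these libraries.

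Most TRIM proteins hold a RING domain, 1 or more B-boxes and a coiled coil, and most attach ubiquitin to other proteins through the RING domain. Some members lack the RING domain. The C-terminal part sets the subfamily, for example the SPRY domain of the C-IV class, the NHL repeats of the C-VII class or the bromodomain of the TIF1 class. Several members are induced by interferon and act in antiviral defence, by binding viral capsids, by ubiquitinating the sensors of foreign nucleic acid or by tuning the signalling that follows. The question was whether these interferon-inducible members fell together with the other interferon-stimulated genes when NAT10 was knocked down.

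The promoters of the interferon-inducible members are shown first, because interferon acts on such genes through the interferon-stimulated response element. Its core was searched as GAAA, any 2 bases and GAAA on both strands of the RefSeq promoters (GRCh38.p14), each from 250 bases before to 50 bases after a start site. Overlapping matches were counted as 1 promoter with a match. A promoter entry was given for 9 of the 10 interferon-inducible members, and TRIM22 had no entry. The core was found in 6 of these 9 genes, in 4 of the 53 other members with an entry and in 31 of the 49 interferon-stimulated genes with an entry, and 4.38% of all 27305 genes with an entry held it. TRIM25, TRIM38 and TRIM56 held no match in this window. The stretches below run 5′ to 3′ on the strand of the gene, with the matched bases in capitals. A match is a description of the letters and not a site of binding. In order, the stretches lie at chr11:5685075-5685174 (minus strand), chr9:98119223-98119322 (minus), chr11:4393663-4393692 (minus), chr6:30213541-30213640 (minus), chr11:5624901-5625000 (plus) and chr15:44736428-44736527 (plus). That of TRIM21 starts after the start site, whereas the other stretches lie upstream of it.
TRIM5: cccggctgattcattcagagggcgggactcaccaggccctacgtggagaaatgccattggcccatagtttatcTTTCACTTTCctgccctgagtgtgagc
TRIM14: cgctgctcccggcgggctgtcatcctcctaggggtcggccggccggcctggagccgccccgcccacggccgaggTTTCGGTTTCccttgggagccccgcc
TRIM21: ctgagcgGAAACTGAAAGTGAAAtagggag
TRIM26: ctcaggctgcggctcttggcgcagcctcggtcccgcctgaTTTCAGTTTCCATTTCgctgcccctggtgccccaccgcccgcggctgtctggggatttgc
TRIM34: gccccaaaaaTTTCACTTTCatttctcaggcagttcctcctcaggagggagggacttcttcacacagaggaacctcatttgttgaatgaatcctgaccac
TRIM69: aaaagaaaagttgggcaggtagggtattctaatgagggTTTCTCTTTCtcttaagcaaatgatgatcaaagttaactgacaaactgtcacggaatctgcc

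In TRIM5 and TRIM14 the core ended within 20 bases of the start site of the promoter entry, at bases -27 to -18 and -26 to -17. In TRIM21 and TRIM26 a pair of overlapping cores formed 1 run. A second motif, the gamma-activated site searched as TTC, any 3 bases and GAA on both strands, was found in 0 of the 9 interferon-inducible members, in 12 of the 53 other members, in 16 of the 49 interferon-stimulated genes and in 9.38% of all genes with an entry.

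The knockdown was checked first. NAT10 was at 31.6, 27.7 and 28.6 FPKM (fragments per kilobase of transcript, scaled to the reads of the library) in shCtrl and at 7.92, 8.43 and 7.90 FPKM in shNAT10. The log2 fold change, given throughout as shNAT10 minus shCtrl on log2 of the FPKM plus 0.1, was -1.84 (SE 0.08, limma adjusted p = 3.85e-05). All 8 markers of pancreatic ductal epithelium were expressed, with a summed level of 2835 to 3793 FPKM in shCtrl and of 1545 to 1725 FPKM in shNAT10. The sum was carried by KRT8 and KRT18. Of the 8 markers, 4 (KRT7, KRT8, KRT18 and KRT19) were lower, EPCAM (2.20 on the log2 scale) and SOX9 (0.19) were higher, and 2 did not pass the limma test. SOX9 passed narrowly (limma adjusted p = 0.0498) and lost the call with 1 library left out (limma adjusted p up to 0.156). Of 8 leukocyte markers 1 reached a mean of 1 FPKM and 3 were at 0 in all libraries. The fall of the keratins went along with the results below, and its part in them was not tested. In these bulk libraries, fewer cells of a type and less RNA per cell cannot be told apart. Replicate 2 of shCtrl stood furthest from its group, with a median absolute deviation of 0.17 on the log2 scale against 0.05 to 0.13 in the other libraries.

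PANC-1 cells expressed 39 of the 78 members, taken as at least 1 FPKM in at least 3 libraries, and only these were tested. Of the other 39, 22 were at 0 in every library and 34 stayed below 0.1 FPKM throughout. The remaining 5 were TRIM22, TRIM29, TRIM36, TRIM55 and TRIM74, and none of them exceeded 0.635 FPKM. Chromosome 11 carried 23 members, of which 7 were tested and 14 stayed below 0.1 FPKM in every library.

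TRIM28 (KAP1), the corepressor recruited by KRAB zinc finger proteins, stood far above the other members. On the FPKM scale, which accounts for length, it made up 40.2% of the summed level of all members in shCtrl. It was at 181, 255 and 199 FPKM in shCtrl and at 185, 186 and 169 FPKM in shNAT10. The groups overlapped, with shCtrl replicate 2 the highest library, and the difference of -0.22 (SE 0.13) did not pass the test (limma adjusted p = 0.198). Next in shCtrl came TRIM47 at 24.97 ± 3.37 FPKM (SD, n = 3), TRIM37 at 18.6 ± 1.39, TRIM25 at 16.9 ± 1.44 and TRIM4 at 16.3 ± 0.53 FPKM. TRIM47 lay above TRIM37 in every shCtrl library, whereas the libraries of TRIM37 and TRIM25, and those of TRIM25 and TRIM4, overlapped. In shCtrl, the means of the other tested members all lay between 1 and 20 FPKM.

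**Figure D1:**
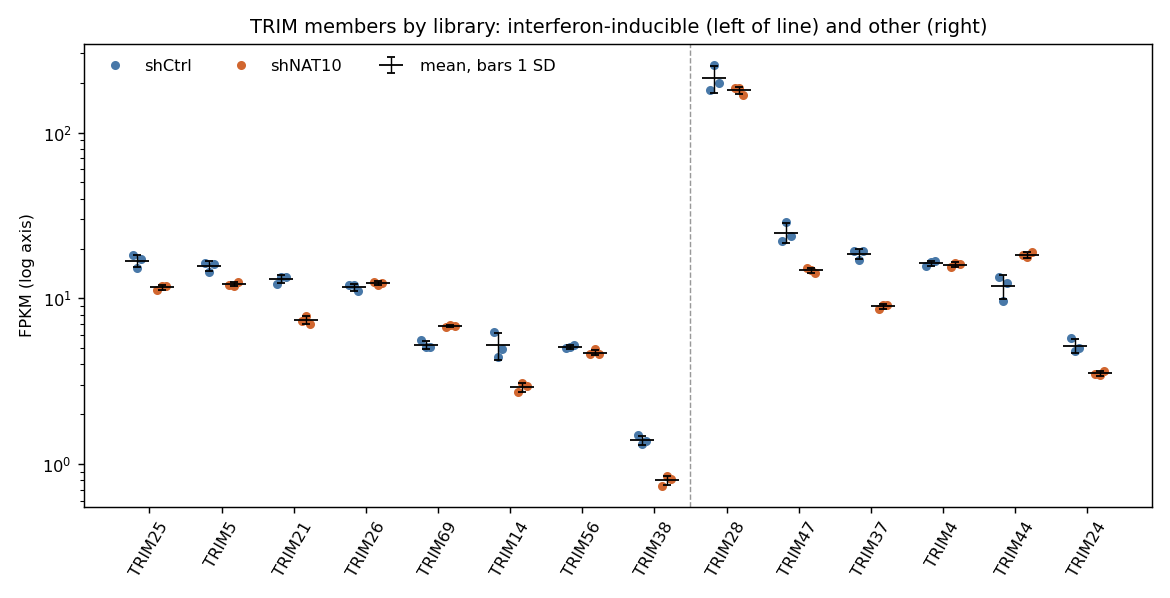
FPKM (log axis) of the 14 TRIM members described in full, in each of 3 shCtrl (blue) and 3 shNAT10 (orange) libraries, with the mean and 1 SD; interferon-inducible members lie left of the dashed line. TRIM25, TRIM5, TRIM21, TRIM14 and TRIM38 lay lower in every shNAT10 library than in any shCtrl library, TRIM69 lay higher, and TRIM28 reached 255 FPKM in 1 shCtrl library.

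After NAT10 knockdown, 14 of the 39 tested members were lower, 3 were higher and 22 did not pass the test, at a limma adjusted p under 0.05 over all 12982 genes tested. Across all these genes, 42.0% passed, with 21.2% lower and 20.8% higher, so that the share of members that were lower (35.9%) was above the background and the share that were higher (7.69%) below it. The median log2 fold change was -0.17 over the members and -0.01 over all genes. The groups did not overlap in 24 of the 39 members (61.5%), against 56.5% of all genes. The split depended on the scaling: with values rescaled to TPM, in which every library sums to the same total, 9 members were lower and 6 higher, while all genes went from 2751 lower and 2699 higher to 2075 lower and 3355 higher. Only 1 member, TRIM37, changed by more than 1 on the log2 scale, beside 3.57% of all genes called below -1 and 2.91% called above 1, and it came to -0.94 with TPM and -0.97 with a pseudocount of 1.

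**Figure D2:**
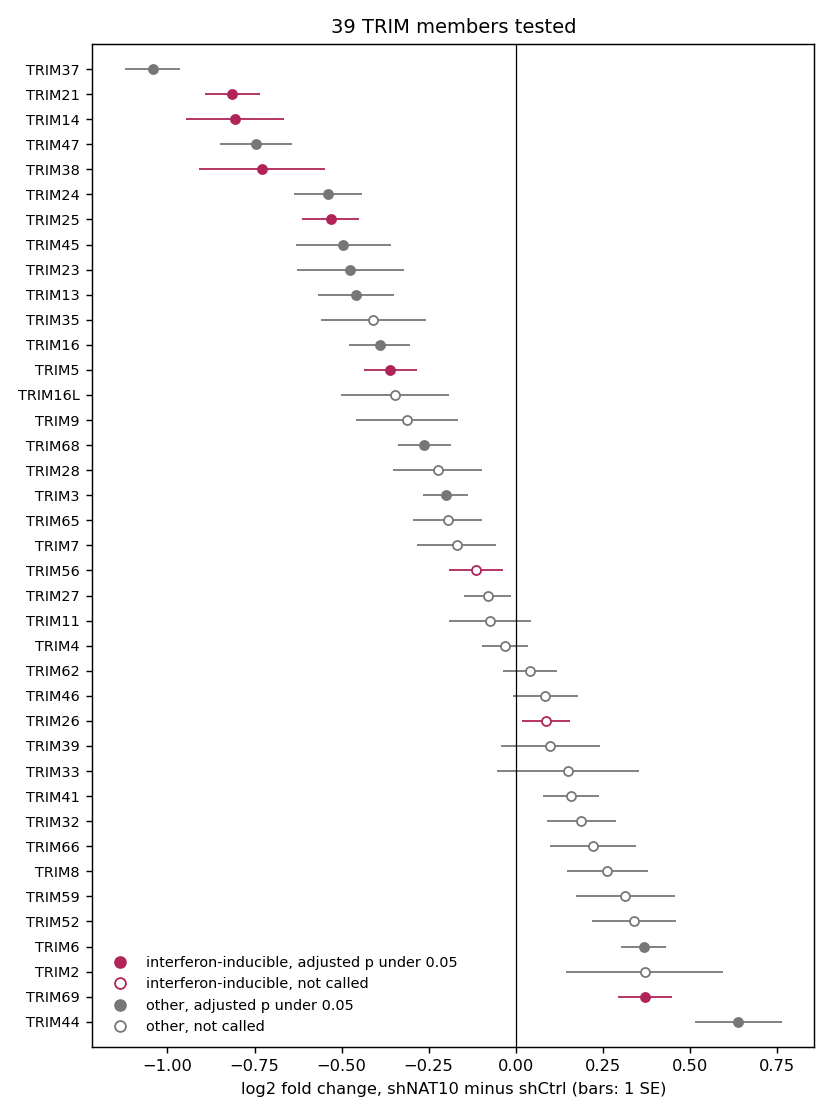
Log2 fold change (shNAT10 minus shCtrl, bars 1 SE) of the 39 tested TRIM members, in order of change; interferon-inducible members are red, and filled points passed the limma test. Changes ran from -1.04 for TRIM37 to 0.64 for TRIM44.

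Of 10 interferon-inducible members, 8 were tested. TRIM21, TRIM14, TRIM38, TRIM25 and TRIM5 were lower, TRIM69 was higher, and TRIM26 and TRIM56 did not pass the test. Their median log2 fold change was -0.45, against -0.08 for the 31 other tested members, of which 9 were lower and 2 higher. With TPM, 4 of the 8 interferon-inducible members were lower and 1 was higher (median -0.34), and of the 31 others 5 were lower and 5 higher (median 0.027). The median over all genes moved up as well, from -0.01 to 0.097, so that the other members stayed below it. The 9 lower others became 4 without shCtrl replicate 3. They became 5, 5 and 3 without shNAT10 replicates 1, 2 and 3. In these settings, in the same order, the 2751 lower calls over all genes also fell, to 1892, 1831, 1897 and 1765. Without shCtrl replicate 2 the 2 higher others became 4, and the higher calls over all genes went from 2699 to 3303. With any 1 library left out, 4 or 5 interferon-inducible members were lower. TRIM38 passed the filter on expression through the shCtrl libraries alone. Without it, 4 of 7 were lower and the median was -0.36.

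TRIM21, the cytosolic antibody receptor that directs antibody-coated viruses to the proteasome, fell the most among them. It was at 12.2, 13.5 and 13.5 FPKM in shCtrl and at 7.29, 7.86 and 7.05 FPKM in shNAT10. Every shNAT10 library lay below every shCtrl library, and the log2 fold change was -0.81 (SE 0.08, limma adjusted p = 0.000426). TRIM14, a member without a RING domain that joins the mitochondrial adaptor MAVS in antiviral signalling, was at 6.30, 4.43 and 4.97 FPKM in shCtrl and at 2.74, 3.08 and 2.95 FPKM in shNAT10. The groups were apart although shCtrl replicate 1 stood above the other two, and the change was -0.81 (SE 0.14, limma adjusted p = 0.00424). TRIM38, which restrains inflammatory and interferon signalling, was at 1.49, 1.32 and 1.38 FPKM in shCtrl and at 0.74, 0.85 and 0.82 FPKM in shNAT10. This change of -0.73 (SE 0.18, limma adjusted p = 0.0173) rested on 111 to 305 reads per library. It no longer passed when shCtrl replicate 3, shNAT10 replicate 1 or shNAT10 replicate 3 was left out (limma adjusted p = 0.0597, 0.0533 and 0.0515).

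TRIM25, the ligase known for ubiquitinating the RNA sensor RIG-I, was at 18.2, 15.3 and 17.2 FPKM in shCtrl and at 11.2, 11.8 and 11.9 FPKM in shNAT10. The shNAT10 libraries were all lower, by -0.53 (SE 0.08, limma adjusted p = 0.00272). TRIM5, which recognises the capsid of incoming retroviruses, was at 16.4, 14.4 and 16.1 FPKM in shCtrl and at 12.05, 11.9 and 12.5 FPKM in shNAT10. Its groups did not overlap either, and the change was -0.36 (SE 0.08, limma adjusted p = 0.00913), which became -0.25 with TPM and missed the threshold there (limma adjusted p = 0.0888).

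TRIM69, a member reported to restrict vesicular stomatitis virus, went the other way. It was at 5.60, 5.13 and 5.07 FPKM in shCtrl and at 6.70, 6.93 and 6.87 FPKM in shNAT10. All shNAT10 libraries were higher, by 0.37 (SE 0.08, limma adjusted p = 0.00845). TRIM26, encoded in the MHC region, was at 11.98, 11.99 and 11.01 FPKM in shCtrl and at 12.6, 12.1 and 12.5 FPKM in shNAT10, a difference of 0.09 (SE 0.07, limma adjusted p = 0.344). TRIM56, linked to ubiquitination of the DNA-sensing adaptor STING, was at 4.99, 5.06 and 5.27 FPKM in shCtrl and at 4.597, 4.92 and 4.62 FPKM in shNAT10, a difference of -0.11 (SE 0.08, limma adjusted p = 0.278). In TRIM26 and TRIM56 the groups did not overlap, but neither difference passed the test. Of the members with this core shown above, TRIM5, TRIM14 and TRIM21 were lower, TRIM69 was higher, TRIM26 did not pass and TRIM34 was below the filter. Without a match in the window, TRIM25 and TRIM38 were lower and TRIM56 did not pass. The entries that hold the core in TRIM69 (chr15:44736278-44736577), TRIM5 (chr11:5685025-5685324) and TRIM34 (chr11:5624751-5625050) lie inside their genes. These genes span chr15:44728988-44767829, chr11:5663557-5938619 and chr11:5619764-5644398. The start sites used in these cells were not examined for any member. A link between the core and the change was not tested.

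The other 2 interferon-inducible members were hardly expressed. TRIM22 was at 0.17 ± 0.0042 FPKM in shCtrl and 0.10 ± 0.032 FPKM in shNAT10 (SD, n = 3), from 4 to 12 reads per library. TRIM34 held 4, 0 and 4 reads in shCtrl and was at 0 in the 3 shNAT10 libraries. The readthrough gene TRIM6-TRIM34 covers 83.0% of the exon bases of TRIM34, so that the level of TRIM34 is uncertain.

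A list of 60 interferon-stimulated genes without TRIM symbols, which includes the family gene PML, was set beside them. Of its 41 tested genes, 33 were lower and 2 higher, with a median of -1.02. In 6 of these genes (IFIT3, IFITM1, IRF9, OAS1, PSMB9 and SAMD9) fewer than 3 shNAT10 libraries reached 1 FPKM, so that they passed the filter through shCtrl. Without these 6 and PML, a choice made after the values were seen, 27 of 34 were lower and 2 higher, with a median of -0.86, and 16 were lower beyond 1. Over all 41 genes, 21 were lower beyond 1 on the log2 scale, against 0 of the 8 interferon-inducible TRIM members. The largest falls were those of IFIT2, which binds foreign RNA (-2.58), of IFITM3, which blocks viral entry at membranes (-2.35), and of IFIT3, a partner of IFIT2 (-2.26). IFITM3 went from 415 to 80.1 FPKM in the means of 3 libraries. The 2 genes that were higher were MX2 (0.33, limma adjusted p = 0.0246) and DDX58, which encodes RIG-I, the sensor TRIM25 acts on (0.27, limma adjusted p = 0.0491). Neither of them passed without shCtrl replicate 3 or without any 1 of the shNAT10 libraries, when 0 genes of the list were higher. The difference in size between the lists was not tested.

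The RNA and DNA sensing pathway on which TRIM25, TRIM21, TRIM14, TRIM38 and TRIM56 act was read from a list of 18 genes, all tested. Of these, 3 were lower, 3 were higher and 12 did not pass. Over all genes, 21.2% were lower and 20.8% higher, so that the counts are not read as a change of the pathway. TMEM173, which encodes STING, went from 6.79 ± 0.89 to 0.96 ± 0.083 FPKM (SD, n = 3 each), a log2 fold change of -2.69 (SE 0.14, limma adjusted p = 5.68e-05). It passed the filter through shCtrl, and without it 2 of 17 genes of the list were lower. CGAS, the DNA sensor upstream of STING, fell by 1.38 and IFIH1, the RNA sensor MDA5, fell by 1.02 on the log2 scale. TRAF3, an adaptor below MAVS (0.81), TAB2, a binding partner of the kinase TAK1 (0.45), and DDX58 were higher. The calls of TAB2 and DDX58 were lost with 1 library left out (limma adjusted p up to 0.0611 and 0.1602). MAVS itself was at 15.5 FPKM in shCtrl and 16.2 FPKM in shNAT10 and did not pass (limma adjusted p = 0.538).

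Among members not on the interferon list, TRIM37 showed the largest fall of the family. TRIM37 is a ligase of the C-VIII class that acts at centrosomes and is mutated in Mulibrey nanism. It was at 19.4, 17.0 and 19.3 FPKM in shCtrl and at 8.62, 9.11 and 9.16 FPKM in shNAT10. The shNAT10 mean was 48.2% of the shCtrl mean, and the change was -1.04 (SE 0.08, limma adjusted p = 0.000185). The exons of TRIM37 overlap genes of the opposite strand over 11.1% of their bases. TRIM47, a RING and SPRY member, was at 22.3, 28.8 and 23.9 FPKM in shCtrl and at 15.2, 14.8 and 14.3 FPKM in shNAT10. All shNAT10 libraries were lower, by -0.75 (SE 0.10, limma adjusted p = 0.00162). The antisense gene AC087289.5 overlaps 51.5% of the exon bases of TRIM47, and the strand setting of the counting is not given in the sources used here, so that the level of TRIM47 is uncertain.

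The TIF1 class holds the chromatin regulators TRIM24, TRIM28, TRIM33 and TRIM66, all tested. TRIM24, a nuclear receptor cofactor that reads histone marks, was at 5.77, 4.81 and 5.02 FPKM in shCtrl and at 3.49, 3.46 and 3.67 FPKM in shNAT10. It was lower in every shNAT10 library, by -0.54 (SE 0.10, limma adjusted p = 0.00497). TRIM33, which binds SMAD4 and ubiquitinates it, was at 7.68, 4.25 and 6.54 FPKM in shCtrl and at 6.25, 6.65 and 7.07 FPKM in shNAT10. The shCtrl spread of TRIM33 covered all shNAT10 values, and the test was not passed by TRIM33 or TRIM66. Of 14 partners of this class, all tested, 2 were lower and 3 higher. With 21.2% lower and 20.8% higher over all genes, these counts are not read as a change of the partners as a set. CHD3, a NuRD helicase that TRIM28 recruits, rose from 23.3 ± 1.58 to 45.5 ± 0.90 FPKM (SD, n = 3 each; log2 fold change 0.96, limma adjusted p = 0.000163). CBX1, an HP1 protein (0.72), and HDAC1, a histone deacetylase (0.64), also rose, and SMAD3 (-0.33) and the histone methyltransferase SETDB1 (-0.29) fell. The call of SETDB1 was lost with 1 library left out (limma adjusted p up to 0.0704).

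TRIM44, a member without a RING domain that carries a zinc finger found in deubiquitinases, rose the most. It was at 13.5, 9.68 and 12.3 FPKM in shCtrl and at 18.2, 17.7 and 19.1 FPKM in shNAT10. Every shNAT10 library was higher, with shCtrl replicate 2 the lowest library, and the change was 0.64 (SE 0.12, limma adjusted p = 0.00661). TRIM6, which builds free ubiquitin chains in interferon signalling and stands only on a wider list of interferon-inducible members, went from 13.4 ± 0.27 to 17.3 ± 0.68 FPKM (SD, n = 3 each; log2 fold change 0.37, SE 0.07, limma adjusted p = 0.00465). It shares 29.3% of its exon bases with TRIM6-TRIM34. On the wider list 5 of 11 tested members were lower and 2 higher, with a median of -0.36. TRIM4, reported to ubiquitinate RIG-I as TRIM25 does, was at 15.7, 16.5 and 16.7 FPKM in shCtrl and at 15.4, 16.4 and 16.1 FPKM in shNAT10. The groups of TRIM4 overlapped, and the difference of -0.03 (SE 0.07, limma adjusted p = 0.736) turned to 0.08 with TPM.

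Smaller falls passed the test in TRIM45 (-0.50), TRIM23 (-0.47), TRIM13 (-0.46), TRIM16 (-0.39), TRIM68 (-0.26) and TRIM3 (-0.20). TRIM23, which carries an ARF-type GTPase domain, was at 6.46 ± 1.34 FPKM in shCtrl and 4.55 ± 0.13 FPKM in shNAT10 (SD, n = 3). TRIM13, a ligase of the endoplasmic reticulum membrane, was at 3.18 ± 0.28 and 2.29 ± 0.048 FPKM. TRIM13 shares 13.4% of its exon bases with KCNRG, and TRIM16 shares 23.5% with AC005324.3, so that reads of these genes may be split. Of the 17 calls, 10 held with each library left out in turn, namely TRIM5, TRIM14, TRIM21, TRIM24, TRIM25, TRIM37 and TRIM47 among the falls and TRIM6, TRIM44 and TRIM69 among the rises. The 6 smaller falls and TRIM38 each lost the call at least once. The count of lower members came to 8 without shCtrl replicate 3, 9 without shNAT10 replicate 1 and 7 without shNAT10 replicate 3. Lower calls over all genes fell there as well, from 2751 to 1892, 1831 and 1765. The count of higher members came to 5 without shCtrl replicate 2, the library that stood apart. Higher calls over all genes went from 2699 to 3303 there. The share of all calls that held with each library left out was not computed.

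The 22 members that did not pass ran from -0.41 for TRIM35 to 0.37 for TRIM2. TRIM2, an NHL member, was at 9.47, 4.94 and 8.15 FPKM in shCtrl and at 9.68, 8.50 and 10.1 FPKM in shNAT10. The groups of TRIM2 overlapped, shCtrl replicate 2 was again apart, and the SE was 0.23 (limma adjusted p = 0.227). TRIM52 came closest among the rises, with no overlap and a difference of 0.34 (SE 0.12, limma adjusted p = 0.0584); an antisense gene overlaps 28.5% of its exon bases.

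By class, 6 of 18 tested C-IV members were lower and 2 higher, with a median of -0.13. The C-IV calls include those of TRIM5, TRIM21, TRIM25 and TRIM38 (lower) and of TRIM69 (higher) given above. In the NHL class 1 of 3 was lower, in C-V 0 of 3 passed, and of 4 tested members without a RING domain 2 were lower and 1 was higher. Over all genes 21.2% were lower and 20.8% higher, and the counts are not read as a change of any class. Of family genes under other symbols, PML, the scaffold of PML nuclear bodies and itself interferon-stimulated, fell from 8.65 ± 1.11 to 5.62 ± 0.30 FPKM (SD, n = 3 each; log2 fold change -0.61, limma adjusted p = 0.00430). RNF207 fell by 0.35 on the log2 scale, and MID1 and MID2, ligases bound to microtubules, did not pass.

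Among neighbours on chromosome 11 (GRCh38), TRIM21 (chr11:4384897-4393696) and TRIM68 (chr11:4598672-4608259) were lower, TRIM6 (chr11:5596109-5612958) was higher, TRIM5 (chr11:5663557-5938619) was lower, and TRIM34 and TRIM22, which lie on both sides of the TRIM5 promoter, were nearly silent.

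The acRIP-seq lists placed ac4C peaks on 37 of the 78 members. Each group had 1 pooled list, so that no difference between the groups could be tested. A peak was listed for 28 members in shCtrl and for 26 in shNAT10, of which 17 were in both, 11 in shCtrl alone and 9 in shNAT10 alone. The shares were 35.90% and 33.33% of the members, beside 36.96% and 35.83% of all protein-coding genes. Of all 19817 protein-coding genes, 4861 had a peak in both lists, 2463 in shCtrl alone and 2240 in shNAT10 alone. The counts are therefore not read as particular to the members. Among the 39 tested members 23 had a peak in each list (59.0%), beside 55.5% of all tested protein-coding genes in shCtrl and 53.7% in shNAT10. Of the 8 tested interferon-inducible members, 6 had a peak in shCtrl and 7 in shNAT10. A peak in shCtrl was listed for 8 of the 14 members that were lower (57.1%) and for 14 of the 22 that were not called (63.6%).

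Most peaks of the members had no overlap with a peak of the other list, even where the same member carried one in both. Counted per gene, with a double listing of TRIM52 merged in each list, there were 45 peaks in shCtrl and 46 in shNAT10. The peak that TRIM34 and TRIM6-TRIM34 share counts for both genes, so that the shCtrl peaks were 44 distinct ones. In each list 5 peaks shared at least 1 base with a peak of the other list. These lay in TRIM25 and TRIM8 (coding sequence), in TRIM33 and at 2 places in TRIM44 (3′ UTR). The overlap over all listed peaks (16892 in shCtrl and 15813 in shNAT10) was not computed. The count is therefore not read as particular to the members or as a shift of ac4C. In shCtrl, 20 peaks lay in the coding sequence and 22 in the 3′ UTR. In shNAT10, 21 lay in the coding sequence, 21 in the 3′ UTR and 2 in the 5′ UTR. The coding stretches that both lists covered in TRIM25 and TRIM8 are printed below from the GENCODE v29 transcripts, with each cytidine, the base that NAT10 acetylates, in capitals. That of TRIM25 joins 91 bases across an intron within chr17:56892213-56895416 (GRCh38, minus strand) and holds 27 cytidines (29.7%), and that of TRIM8 joins 141 of the 149 shared bases, the other 8 lying outside the coding sequence of the longest coding transcript, within chr10:102654653-102655124 (plus strand) and holds 28 (19.9%).
TRIM25: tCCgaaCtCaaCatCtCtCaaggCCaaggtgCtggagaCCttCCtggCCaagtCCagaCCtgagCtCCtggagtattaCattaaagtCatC
TRIM8: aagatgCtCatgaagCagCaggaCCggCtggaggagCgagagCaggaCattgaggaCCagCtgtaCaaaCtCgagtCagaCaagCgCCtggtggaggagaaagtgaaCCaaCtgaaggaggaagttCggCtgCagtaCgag

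The fold enrichment of IP over input, a ratio given by the peak caller, spread widely. Its median over the members' peaks was 72.4 in shCtrl and 96.05 in shNAT10, beside 49.3 and 45.2 over all peaks of the lists. The highest values in shCtrl were 2570 for TRIM35, 975 for TRIM11, 782 for a peak shared by TRIM34 and TRIM6-TRIM34, 670 for TRIM36 and 537 for TRIM52. In shNAT10 they were 3870 for TRIM52, 2890 for TRIM56, 2420 for TRIM21, 2090 for TRIM38 and 1510 for TRIM33. The TRIM21 peak of 2420 lay in the coding sequence at chr11:4385401-4385609, and the 2 shCtrl peaks of TRIM21, elsewhere in the gene, reached 85.3 and 26.9.

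None of the 5 members with the highest RNA levels in shCtrl was among the 5 highest enrichments of either list. TRIM28, at 212 FPKM in shCtrl, had 1 peak of 5.76 in shCtrl and none in shNAT10, TRIM37 had 1 peak of 2.84 in shCtrl, and TRIM47 had none in either list. TRIM4 reached 122 in shCtrl and had no peak in shNAT10, and TRIM25 reached 72.4 in shCtrl and 151 in shNAT10. TRIM44, which rose, had 3 peaks in each list, all in the 3′ UTR and none above 19.5. In turn, 5 members below the filter on expression carried a peak in shCtrl (TRIM22, TRIM34, TRIM36, TRIM6-TRIM34 and TRIM39-RPP21) and 3 in shNAT10 (TRIM29, TRIM54 and TRIM58). TRIM58 was at 0 FPKM in all 6 RNA-seq libraries and had a peak of 1310 in shNAT10. The paper describes RNA-seq on captured mRNA, whereas acRIP-seq used fragmented total RNA with ribosomal cDNA removed. It also states that conventional acRIP-seq is susceptible to false positives. The enrichment is a ratio of IP over input, and the input level at these peaks was not examined. Peaks on members below the filter are therefore not read as strong acetylation of silent genes.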

How the data were processed

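Human PANC-1 cells with a control shRNA or a NAT10 shRNA were profiled by RNA-seq (3 libraries per group) and acRIP-seq (3 IP and 3 input libraries per group). The authors deposited FPKM values per gene, and their processing notes list HISAT2 2, HTSeq 0.11.0, DESeq2 1.22.2 and GRCh38 without roles. The FPKM used the longest transcript of a gene, at which 96.6% of the values above 0 were whole reads within 0.02. For acRIP-seq, the authors deposited 1 peak list per group with a ratio (fold enrichment of IP over input), a p-value and a score (log10 of that p-value) per peak. The peak caller is not given in the sources used here. Of the 58302 genes, 58039 were in GENCODE v29.

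The 2 groups were compared in limma 3.58.1 (R 4.3.3), fitted to log2(FPKM + 0.1) with its variance trend, and p-values were adjusted by Benjamini-Hochberg over the 12982 genes reaching 1 FPKM in at least 3 libraries; low genes are understated on this scale. In a simulation of this comparison over 12982 genes, 174 of 200 genes given a log2 change of 1 were called, besides 13 false calls. All other genes were left unchanged there and the noise was independent, whereas 42.0% of genes were called in the data. The simulated rates therefore do not carry over to the calls reported here. Peaks were placed by midpoint on the longest coding transcript. Members with full values were the tested interferon-inducible ones, those called with a change of at least 0.5, the 5 with the highest shCtrl level and, for peaks, the 5 highest enrichments per list; TRIM33 is given as part of the TIF1 class, and other genes were chosen after their values were seen. The members and gene lists were chosen with earlier results of these data known. Alternatives covered pseudocount, filter, scaling, block, trend, limma-voom on recovered reads, lists, thresholds and each library left out. Python 3.11.15 and pandas 2.3.3 were used.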

Additional observations from a re-analysis of the deposited data

How the results depend on the processing

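Of 125 alternative values of counts and medians 100 stayed within their limits, and of those for single named members 201 kept direction and call, 4 lost the call and 1 turned. With TPM, 9 members were lower and 6 higher, the median of the interferon-inducible members was -0.34 and TRIM4 turned to 0.078. The median over all genes was 0.097 with TPM. At a minimum of 5 FPKM, 8 of 26 tested members and 3 of 5 tested interferon-inducible members were lower, with a median of -0.36 over the latter. TRIM14, TRIM38 and TRIM56 were not tested at this filter. The wider interferon-inducible list gave 2 higher members and a median of -0.36, which was also the median without TRIM38, left out after the values were seen. Beyond a log2 fold change of 1, 1 member was lower and 0 higher, 0 interferon-inducible members were lower or higher, and 21 interferon-stimulated genes were lower and 0 higher. The count of interferon-stimulated genes that were higher was 0 without a filter on expression and 1 without the mean-variance trend. With each library left out, 7 to 15 members were lower and 3 to 5 higher, and 0 to 2 interferon-stimulated genes were higher. Nothing states that the replicate numbers shared by the groups pair the libraries. Correlations of deviations from the group means were -0.04, 0.06 and 0.11 for shared numbers and -0.12 to 0.06 for unlike numbers. With 3 libraries per group these values cannot decide whether the libraries were paired. With a replicate block 11 members were lower and 3 higher. Peak counts rest on 1 pooled list per group and have no replicate error. The cause of these changes was not tested.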
